A study of Mus musculus with 3 samples.

Results

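The genes described here are 35 genes of the endoplasmic reticulum (ER), the compartment in which secreted proteins are folded: its chaperones, its protein-modifying enzymes, its degradation machinery and parts of the unfolded protein response. They were taken by name from a list that sets no measured threshold, though it was drawn up with earlier results of these data known, and all 35 were present among the 31053 genes of the count table. Islets came from 7- to 8-month-old C57Bl6/J males that had been retired breeders, and each mouse had carried a pump for 2 weeks. Control pumps held no S961, S961 pumps delivered the insulin receptor antagonist of that name at a labelled 20 nM per week, and recovered mice had their S961 pumps taken out. Each group gave 1 droplet-based 3′ library (10x Genomics) after overnight islet culture and TrypLE dissociation; the labels give neither the number of mice behind a library nor the length of the recovery. With 1 library per group no spread between mice could be measured and no test was possible: every difference below is one between libraries, and every interval covers counting error only.

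Beta cells make insulin as a precursor that enters the ER, is folded there with the help of chaperones and disulfide isomerases, and leaves for the secretory granules. When unfolded protein builds up, the sensors IRE1 (Ern1), ATF6 and PERK are released from the chaperone BiP (Hspa5) and switch on, through spliced Xbp1, cleaved ATF6 and ATF4, the genes for more chaperones, translocation and degradation. Many of these genes carry a short promoter element that such factors bind, the ER stress response element (ERSE).

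The ERSE, CCAAT and CCACG with any 9 bases between them, was searched on both strands in the RefSeq promoters (GRCm38.p6) from 250 bases before to 50 bases after each start site, where 29 of the 35 genes had an entry. It was found in 9 of these 29 genes (31.0%) and in 37 of all 27025 genes with an entry (0.137%). The shorter ERSE-II, ATTGG and CCACG with any 1 base between them, was present in 2 of the 29, Dnajb11 and Herpud1, against 0.0444% of all genes, and the 8-letter element TGACGTGG in 1, Kdelr3, against 0.714%. The CCACG that ends both ER stress elements occurs by itself in 86.2% of the 29 and in 35.5% of all, so it overlaps the longer matches. The stretches are shown because these 9 genes differ in what the libraries show for them (values below); each runs 5′ to 3′ on the gene's strand, 10 bases either side of the match, with the match in capitals, and a match that starts with CGTGG is the element on the opposite strand.
Hspa5 (chr2:34772015-34772053, plus strand): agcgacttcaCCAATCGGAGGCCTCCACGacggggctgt
Calr (chr8:84847065-84847103, minus strand): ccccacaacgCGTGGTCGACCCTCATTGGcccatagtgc
Canx (chr11:50325790-50325828, minus strand): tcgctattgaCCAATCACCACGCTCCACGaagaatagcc
Pdia6 (chr12:17266481-17266519, plus strand): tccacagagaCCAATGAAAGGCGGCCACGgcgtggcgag
Syvn1 (chr19:6046522-6046560, plus strand): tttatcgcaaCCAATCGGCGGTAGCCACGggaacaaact
Creld2 (chr15:88819510-88819548, plus strand): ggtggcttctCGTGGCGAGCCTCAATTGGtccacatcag
Dnajc3 (chr14:118937817-118937855, plus strand): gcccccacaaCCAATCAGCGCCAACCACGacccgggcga
Derl3 (chr10:75893232-75893270, plus strand): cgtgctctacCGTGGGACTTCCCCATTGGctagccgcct
Hsp90b1 (chr10:86705523-86705666, minus strand): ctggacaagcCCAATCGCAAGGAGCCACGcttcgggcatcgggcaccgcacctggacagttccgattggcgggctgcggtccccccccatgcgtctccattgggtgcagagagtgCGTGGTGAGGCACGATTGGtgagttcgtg
The Hspa5 match ends 47 bases before the RefSeq start site, inside the GENCODE gene model, which starts further upstream, and the Calr match 144 bases before its start, while Hsp90b1 holds 2 matches, 1 on each strand. A match describes letters only and does not show that a factor binds there.

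Cells were sorted into classes by clustering and by marker genes, and the control library held 2949 beta-like cells, the S961 library 1492 and the recovered library 2077. All 8 beta-cell markers (Ins1, Ins2, Iapp, Mafa, Nkx6-1, Slc2a2, G6pc2 and Ucn3) were detected in each of their 3 clusters, 1 of which was led by heat shock and metallothionein genes and is called stress-led here. The beta-like class held 22694925 unique molecular identifiers (UMIs, each marking 1 captured transcript) in control, 21689287 in S961 and 22465798 in recovered, with medians of 7479, 14013.5 and 10279 per cell and of 30.8%, 34.4% and 31.2% of a cell's UMIs in insulin. Markers of alpha cells summed to 712, 1711 and 873 per 1000000 UMIs in beta-like cells and acinar markers to 57.0, 187 and 165. Ductal markers summed to 1884, 1676 and 1322 and those of PP (gamma) cells to 1386, 1372 and 1035. Delta markers summed to 857, 787 and 704 and epsilon markers to 995, 615 and 428. The 7 stellate or pericyte markers summed to 0.529, 1.80 and 0.623 and the 7 fibroblast markers to 0.264, 1.01 and 0.623. The part of all these markers in the results was not tested. Of the 8 T or NK markers, 8, 7 and 3 were at 0 in the same order of libraries. Between 11 and 29 cell barcodes were shared by each pair of libraries. Since a 3′ UMI counts 1 transcript whatever its length, levels were not scaled by gene length and can be set beside each other. Reads of Calr and Spcs2, which have named pseudogenes, and of the 8 genes that overlap another gene may be split. Of those 8 only Manf overlaps a gene on its own strand. Levels are given as counts per 1000000 UMIs of the class (CPM).

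In beta-like cells 21 of the 35 genes were lower in the S961 library than in control by at least 0.32 on the log2 scale (the threshold for higher and lower throughout), 1 was higher and 13 were neither; of all 11621 genes with at least 50 UMIs over both libraries, 12.1% were lower and 15% higher. The median log2 ratio of the 35 was -0.35, against -0.02 over all genes. Together they made up 12899 CPM of control, 10434 of S961 and 10688 of recovered. Of UMIs other than insulin they made up 1.86%, 1.56% and 1.55%, so by that measure recovered lay no higher than S961. By role, 6 of 9 Hsp70 and Hsp90 chaperones and partners were lower, both lectin chaperones and 4 of 5 translocation genes, against 2 of 8 degradation genes.

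**Figure D1:**
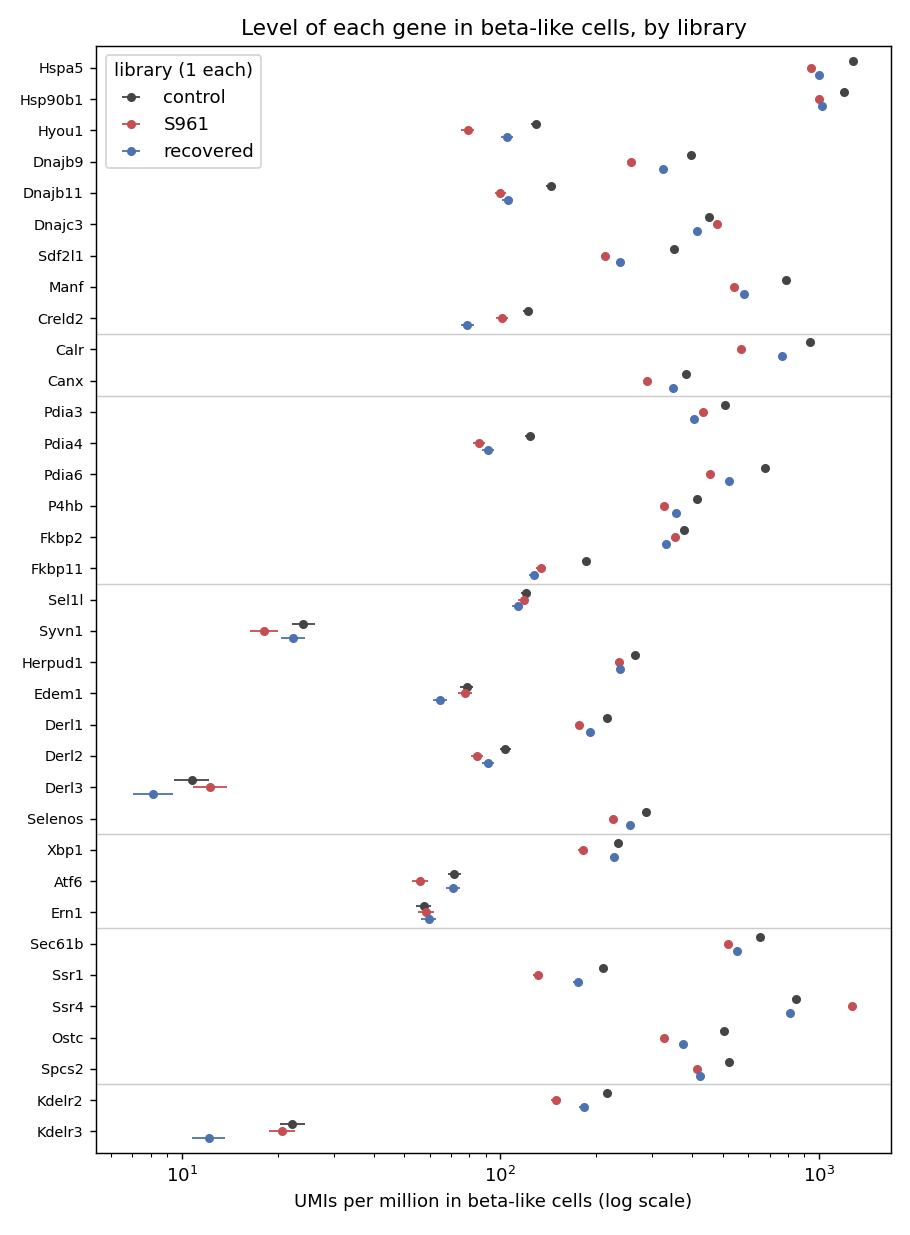
Level of each of the 35 genes in beta-like cells, in CPM on a log axis, with exact Poisson 95% intervals (counting error only); grey lines part the roles. Control lies to the right of the other libraries for most genes, and Ssr4 is the gene whose S961 point (1269) stands clear to the right of control (846).

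Hspa5 (BiP, chr2:34771970-34777547, GRCm38), the Hsp70 chaperone that also holds the sensors inactive, stood at 1277 CPM in control, 942 in S961 and 1000.05 in recovered. Its S961 level was lower than control by a log2 ratio of -0.44 (95% interval -0.47 to -0.41) and its recovered level by -0.35 (95% interval -0.38 to -0.33), so that recovered lay only 0.09 above S961. Hyou1, the nucleotide exchange factor that resets BiP, measured 129 CPM in control, 79.0 in S961 and 105 in recovered, a ratio of -0.71 (95% interval -0.80 to -0.63) for S961 over control. Hyou1 thus stood between the other libraries in recovered, 0.41 above S961 and -0.30 from control. The BiP partners Dnajb9 (ERdj4) and Dnajb11 (ERdj3), J-domain proteins that hand unfolded clients to BiP, had levels of 396 CPM in control, 257 in S961 and 324 in recovered for Dnajb9 and 144 in control, 100.05 in S961 and 105 in recovered for Dnajb11. Their S961 over control ratios were -0.63 and -0.53, and only Dnajb9 was past the threshold between recovered and S961 (0.34). Dnajc3 (p58IPK), a J-domain protein that also dampens PERK, did not follow them: it measured 451 CPM in control, 479.6 in S961 and 415 in recovered, a ratio of 0.09.

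Sdf2l1, a small protein that works with ERdj partners of BiP, had the lowest S961 over control ratio of the 35, -0.73 (95% interval -0.78 to -0.67), with 352 CPM in control, 212 in S961 and 237 in recovered. Manf, a secreted ER stress factor that protects beta cells, measured 789.9 CPM in control, 541 in S961 and 583 in recovered, ratios of -0.55 and -0.44 to control. Both genes were therefore low in S961 and in recovered alike. Hsp90b1 (GRP94), the ER form of Hsp90 and the most abundant of the 35 after Hspa5 in control, was at 1197 CPM in control, 1003 in S961 and 1019 in recovered, a ratio of -0.25 that did not reach the threshold. Creld2, an ER stress-inducible protein with EGF-like domains, was lowest in recovered: 122 CPM in control, 101 in S961 and 78.8 in recovered. Its recovered over control ratio was -0.63 (95% interval -0.72 to -0.55), against -0.27 for S961.

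The lectin chaperones calreticulin (Calr, chr8:84841850-84846934) and calnexin (Canx), which hold glycoproteins until they fold, were both lower in S961. Calr measured 940.2 CPM in control, 571 in S961 and 767 in recovered, ratios of -0.72 (95% interval -0.75 to -0.69) for S961 and -0.29 (95% interval -0.32 to -0.26) for recovered. Canx measured 382 CPM in control, 289 in S961 and 349 in recovered, ratios of -0.40 and -0.13. For both, recovered lay between S961 and control, and Calr was past the threshold between recovered and S961 (0.43).

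Of the 6 isomerases 4 were lower in S961. Pdia6, a protein disulfide isomerase that also acts on the sensors, measured 675 CPM in control, 454 in S961 and 522 in recovered. Pdia4 (ERp72), another disulfide isomerase, measured 124 CPM in control, 85.8 in S961 and 91.2 in recovered. Their S961 over control ratios were -0.57 and -0.53, and their recovered over control ratios -0.37 and -0.44. P4hb (PDI), which makes and breaks the disulfide bonds of proinsulin, had a smaller difference: 414 CPM in control, 327 in S961 and 356 in recovered, ratios of -0.34 and -0.22. Pdia3 (ERp57), the disulfide isomerase that works with calreticulin and calnexin, did not reach the threshold in either comparison with control (-0.23 and -0.32). The prolyl isomerases of the ER parted: Fkbp11 was lower in both (-0.47 and -0.54), while Fkbp2 was near control (-0.09 and -0.19).

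ER-associated degradation, which draws misfolded proteins out of the ER for the proteasome, had 2 of its 8 genes lower in S961, Syvn1 and Selenos, and a median ratio of -0.23. Syvn1 (HRD1), the ubiquitin ligase of the pathway, was rare at 24.1 CPM in control, 18.2 in S961 and 22.4 in recovered, a ratio of -0.41 (95% interval -0.60 to -0.22). Sel1l, the scaffold of the same ligase, hardly differed at 120.2 CPM in control, 118 in S961 and 113 in recovered. Herpud1, a ligase-associated protein that ER stress induces strongly, measured 264 CPM in control, 236 in S961 and 237 in recovered, ratios of -0.16 and -0.15. Edem1, a lectin that marks glycoproteins for degradation, was at 78.4 CPM in control, 77.4 in S961 and 64.8 in recovered. The derlins Derl1 and Derl2, which form the exit channel, had S961 over control ratios of -0.29 for both. Selenos (VIMP), which links the derlins to the p97 ATPase, stood at 287 CPM in control, 225 in S961 and 256 in recovered (-0.35 for S961). Derl3 was the rarest of the 35 at 10.8 CPM in control, 12.3 in S961 and 8.15 in recovered. Its S961 over control interval (-0.07 to 0.45) included 0.

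Among the sensors and transcription factors, Xbp1 and Atf6 were lower in S961 and at the control level in recovered. Xbp1, whose transcript IRE1 splices to make an active factor, measured 234 CPM in control, 181 in S961 and 227 in recovered, ratios of -0.37 (95% interval -0.43 to -0.31) and -0.04 (95% interval -0.10 to 0.01). Atf6, the sensor that is cut in the Golgi to release a factor, measured 71.7 CPM in control, 56.0 in S961 and 71.2 in recovered, ratios of -0.36 and -0.01. Ern1, the IRE1 sensor itself, was nearly equal at 57.4 CPM in control, 58.5 in S961 and 59.5 in recovered. Counts per gene cannot tell spliced from unspliced Xbp1.

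Of the 5 genes for translocation, glycosylation and signal peptide removal, 4 were lower in S961 and 1 was higher. Sec61b, a subunit of the translocation channel, measured 652 CPM in control, 518 in S961 and 553 in recovered. Ssr1 (TRAP alpha), a subunit of the complex that helps some proteins into that channel, was at 209.7 CPM in control, 131 in S961 and 175 in recovered. Their S961 over control ratios were -0.33 and -0.68, and recovered Ssr1 lay between (0.41 above S961). Ssr4 (TRAP delta, chrX:73787028-73790830), another subunit of the complex of Ssr1, went the other way: 846 CPM in control, 1269 in S961 and 810.1 in recovered. Its ratio was 0.59 (95% interval 0.56 to 0.61) for S961 over control and -0.65 (95% interval -0.67 to -0.62) for recovered over S961, so Ssr4 was high in the S961 library and near control in recovered. Ostc, a subunit of the oligosaccharyltransferase, was at 502 CPM in control, 327 in S961 and 375 in recovered, a ratio of -0.62 for S961. Spcs2, of the signal peptidase complex, was at 522 CPM in control, 415 in S961 and 423 in recovered, a ratio of -0.33. The KDEL receptors return escaped ER proteins from the Golgi: Kdelr2 measured 217 CPM in control, 149 in S961 and 183 in recovered. Kdelr3, another such receptor, was rare at 22.3 CPM in control, 20.7 in S961 and 12.2 in recovered. Kdelr2 was lower in S961 (-0.54), whereas Kdelr3 was lower in recovered, with a ratio of -0.87 (95% interval -1.09 to -0.66) to control.

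**Figure D2:**
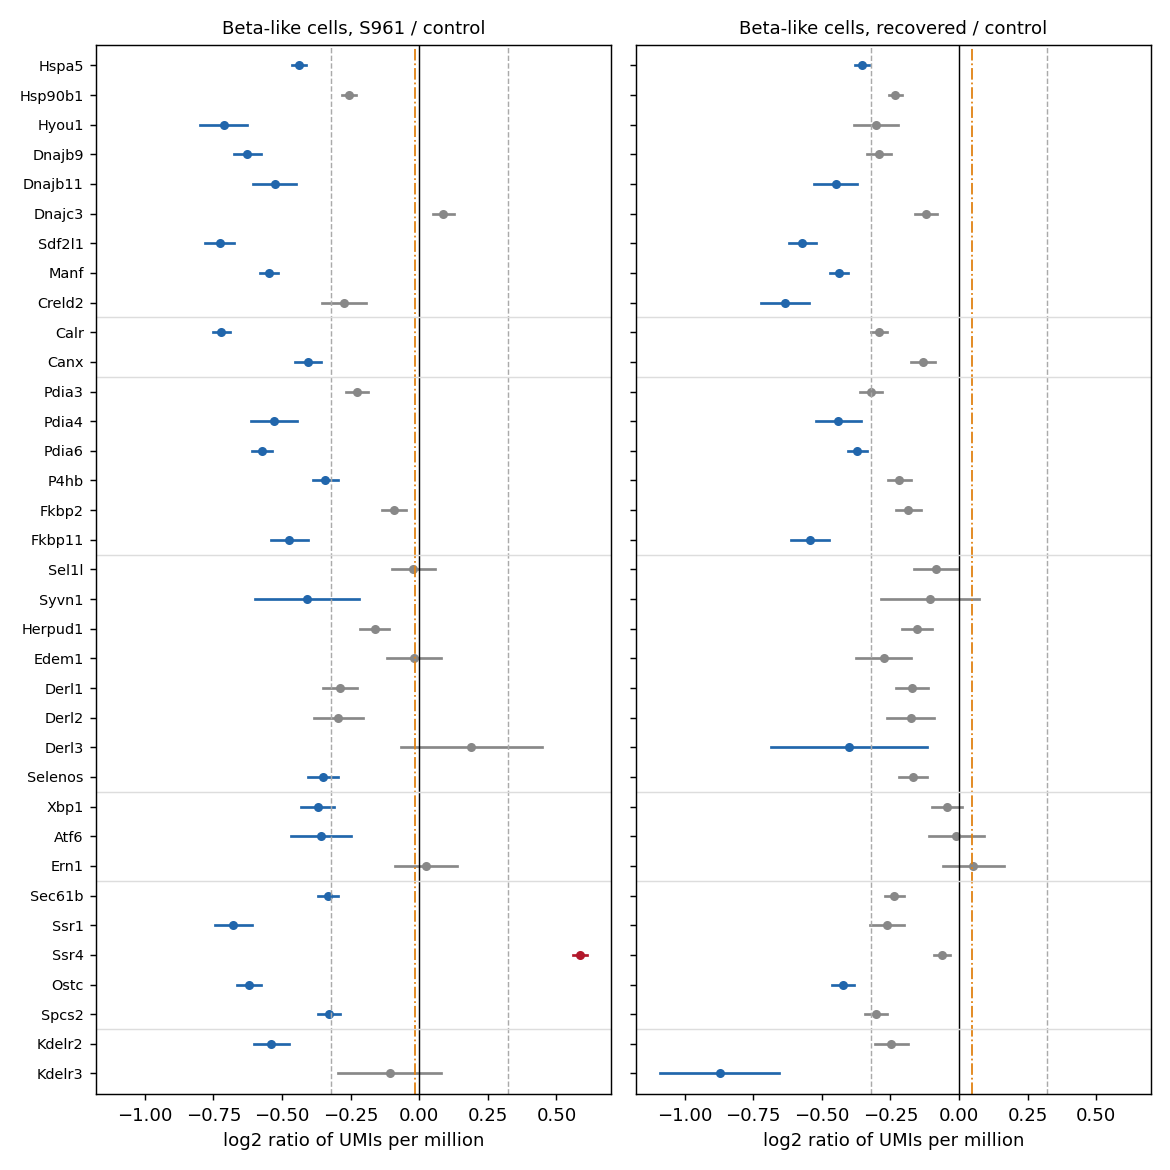
Log2 ratio of each gene in beta-like cells, S961 over control (left) and recovered over control (right), with exact 95% intervals for counting error; blue points are lower and red points higher by at least 0.32 (grey dashed lines), and the orange line marks the median of all genes. On the left 21 genes are blue and 1 is red, on the right 11 are blue; both panels share the control library.

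In recovered beta-like cells 11 genes were lower than in control and 0 higher, against 4.36% lower and 11.1% higher of all 11598 genes measured. The median ratio was -0.26 against 0.05 over all genes, and 34 of the 35 ratios were below 0. Between recovered and S961, 6 genes were higher in recovered (Hyou1, Dnajb9, Calr, Xbp1, Atf6 and Ssr1) and 4 lower (Creld2, Derl3, Ssr4 and Kdelr3), against 14% higher and 9.49% lower of all 11670 genes; the median was 0.10 against 0.06. With UMIs other than insulin as the denominator, or with cells matched on insulin share, 3 were higher. For 24 of the 35 genes the order was S961, recovered, control from low to high. For 7 it was recovered, S961, control, and for 3 (Dnajc3, Derl3 and Ssr4) recovered, control, S961. Ern1 had the order control, S961, recovered. No share over all genes is given for these orders. Of the 24 genes, Hsp90b1, Herpud1 and Spcs2 were lower in recovered than in S961 per UMI other than insulin. All 3 comparisons draw on the same 3 libraries, so they are not independent of each other.

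The promoter match did not sort the genes by direction. Of the 9 genes with an ERSE match, 5 were lower in S961 (Calr -0.72, Pdia6 -0.57, Hspa5 -0.44, Syvn1 -0.41 and Canx -0.40), and Creld2, Hsp90b1, Dnajc3 and Derl3, whose stretches stand above beside theirs, were not. Their median ratio was -0.40 and that of the 20 genes with a promoter entry and no match -0.33.

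Depth per cell differed between the libraries, so each beta-like cell was also thinned to 2000 UMIs, which left out 154 control, 76 S961 and 51 recovered cells. The 35 genes then summed to a median of 24 UMIs per cell in control (quartiles 18 and 31), 19 in S961 (14 and 25) and 19 in recovered (14 and 25), while unthinned cells held 85, 116 and 98. The order of the libraries before thinning was thus that of depth, and the distributions of single cells overlapped widely after it. In the thinned counts 20 genes were lower in S961 than in control, where 24.2% of all genes were. Mitochondrial UMIs also differed, with medians of 4.19% to 4.75% in the S961 cells of the 3 beta-like clusters and 6.16% to 8.15% in the control ones; among cells with 4 to 7% mitochondrial UMIs 25 genes were lower in S961, and 11.9% of all genes.

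The same counts were made in each beta-like cluster. In the largest cluster, of 1059 control, 785 S961 and 1067 recovered cells, 20 genes were lower and 1 higher in S961 than in control (16.3% and 14.9% of all genes there), and in the second, of 1383, 606 and 755 cells, 19 were lower and 1 higher (14.6% and 13.9%). In the stress-led cluster, of 507, 101 and 255 cells, 5 were lower and 7 higher (19.9% and 14.9%), with a median of -0.04. Hspa5 measured 1003, 714 and 796 CPM in control, S961 and recovered cells of the largest cluster, and 1312, 1601 and 1160 in the stress-led one. Herpud1 likewise was at 244, 352 and 210.0 in the stress-led cluster, and Calr at 983, 855 and 928. The difference between clusters was not tested, since each holds 1 library per group, and without the stress-led cluster 23 genes were lower in S961 beta-like cells, and 12.9% of all genes.

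By a rule set after seeing the data, 2 clusters led by pseudogenes were kept out of every named class. The first held 218 control, 213 S961 and 276 recovered cells (5.11%, 6.21% and 7.86% of the cells analysed), with 56.7%, 54.0% and 56.8% of UMIs in insulin and median mitochondrial shares of 1.502%, 1.30% and 1.64%. The 35 genes summed to 2.64%, 2.70% and 2.55% of its UMIs other than insulin, and Hspa5 measured 2138, 2592 and 2141 CPM. Of 32 measured genes 3 were higher and 0 lower in S961 than in control (22.5% and 10.1% of all genes). The second held 97, 99 and 99 cells with 5.14%, 0.657% and 2.26% insulin, and 2 of 24 genes were higher and 3 lower in S961 (21.7% and 13.6%). All 8 alpha-cell markers were raised in it over the median cluster, so the rule kept it out of the alpha-like class used below.

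Other genes of the pathway were counted from a list of 66, of which 65 were measured in beta-like cells. In S961 over control 17 were lower and 8 higher, with a median of -0.13; of all genes 12.1% were lower and 15% higher in this comparison, so the count of higher genes is near that background. Of 19 further translocon and oligosaccharyltransferase genes 10 were lower and 0 higher, among them Rpn1, a subunit of the transferase (301, 189 and 262 CPM in control, S961 and recovered, -0.67 for S961), its catalytic subunit Stt3a (-0.66) and the channel subunit Sec61g (-0.64). Of 12 genes of the PERK arm, which slows translation and acts through ATF4 and CHOP, 3 were higher and 2 lower, too few to set apart from those shares. Ddit3, which encodes CHOP, measured 231, 151 and 160.1 CPM, a ratio of -0.61 (95% interval -0.68 to -0.55) for S961. It is among the genes that lead the stress-led cluster, where it measured 924, 724 and 626. It was at 60.1, 65.2 and 72.4 in the largest cluster and at 145, 137 and 143 in the second, and the stress-led cluster made up 17.2%, 6.77% and 12.3% of beta-like cells. Atf4 hardly differed (-0.04), Ppp1r15a (GADD34), which reverses the block of translation, was higher in S961 (0.65), and Nupr1, a stress-induced chromatin protein, stood at 758, 1471 and 1070.0 (0.96). Eif2ak3, PERK itself, was at -0.14 and Trib3, an ATF4 and CHOP target, at 0.29, neither past the threshold. In the degradation list the lectins Erlec1 (0.82) and Os9 (0.44) were the 2 genes higher in S961, named after their values were seen, and 0 of 11 were lower.

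The 35 genes were then set against insulin. The insulin share of a cell is Ins1 plus Ins2 over all its UMIs, and the level of the 35 was taken per UMI other than insulin, so that insulin does not stand on both sides. In control the summed level was 1.65% of other UMIs in the quintile of cells with the lowest insulin share (median 19.2%), 1.96% in the middle quintile (30.8%) and 1.79% in the top quintile (38.5%). In S961 the same quintiles (20.3%, 34.4% and 46.2% insulin) held 1.55%, 1.46% and 1.89%, and in recovered (21.03%, 31.2% and 38.9%) 1.39%, 1.64% and 1.56%. The level was thus highest at middle insulin shares in control and recovered and in the top quintile in S961. From the bottom to the top quintile the log2 ratios of control, S961 and recovered were 0.12, 0.29 and 0.17, given as a description of cells that share a library.

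**Figure D3:**
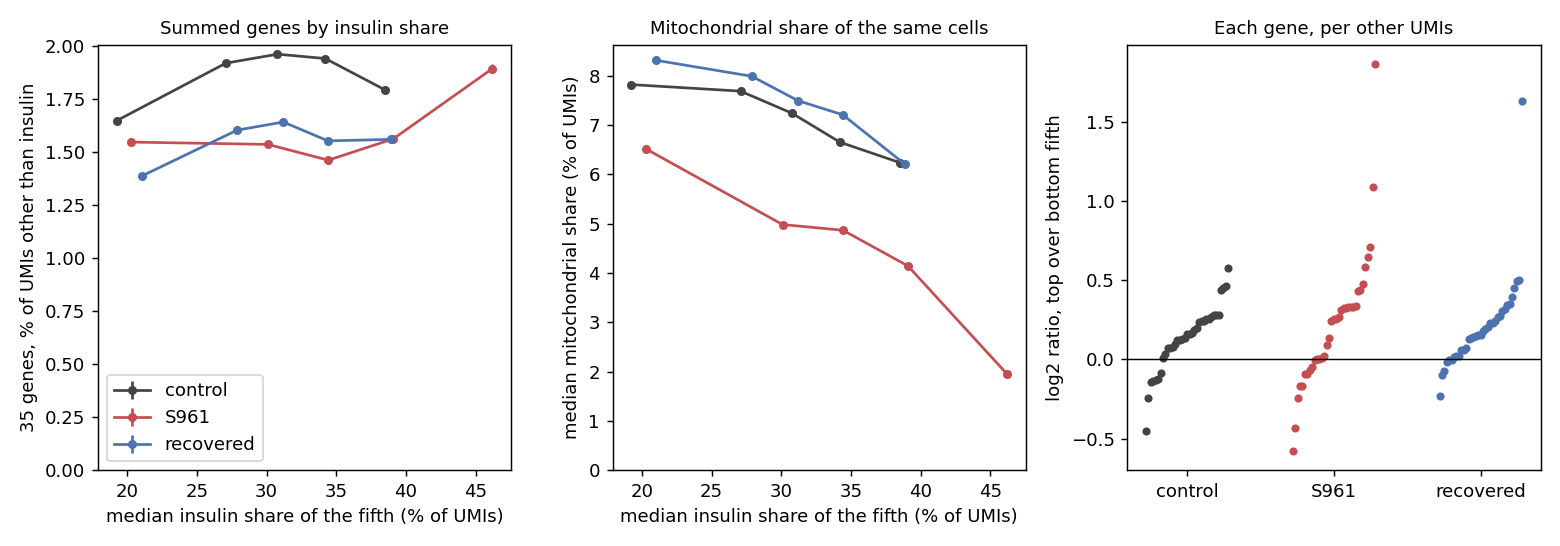
Beta-like cells in quintiles of insulin share within each library. Left, the 35 genes as a percentage of UMIs other than insulin, with exact Poisson 95% intervals smaller than the points; middle, the median mitochondrial share of the same cells; right, each gene's log2 ratio of top over bottom quintile. The S961 top quintile (1.89%) lies furthest to the right, and its mitochondrial share is the lowest of all (1.95%).

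The relations depended on the cells and the denominator used. The top quintile of S961 had a median of 4742 UMIs and 1.95% mitochondrial UMIs, against 13288 and 6.51% in its bottom quintile. With cells of at least 1000 genes and at most 10% mitochondrial UMIs the ratio was 0.12 in S961, 0.05 in recovered and 0.00 in control, and in cells with 4 to 7% mitochondrial UMIs 0.10, 0.05 and 0.02. With all UMIs as the denominator every sign turned (-0.29, -0.33 and -0.23 in control, S961 and recovered). The part of mitochondrial share and depth was not tested beyond these cuts.

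Single genes differed in how they went with insulin share. From bottom to top quintile 4 of the 35 were higher and 1 lower in control (10.5% and 17.7% of all genes), 14 and 2 in S961 (5.71% and 41.7%) and 7 and 0 in recovered (9.17% and 15.2%). Sdf2l1, Fkbp11, Derl3 and Ssr4 were higher in all 3 libraries. Ssr4 went from 939 to 1285 CPM of other UMIs in control, from 1485 to 3160 in S961 (ratio 1.09) and from 969 to 1325 in recovered. Derl3 went from 13.9 to 50.7 in S961 and from 5.63 to 17.5 in recovered, on 16 to 79 UMIs per quintile, and its control ratio of 0.44 had an interval that included 0. Under the stricter cell filter the S961 ratios were 0.76 for Ssr4 and 1.36 for Derl3, and the counts were 3 higher and 2 lower in control (13.2% and 17.7% of all genes), 4 and 2 in S961 (6.41% and 24.8%) and 2 and 0 in recovered (10.8% and 17.1%), and Sdf2l1 was in none of them. Hspa5, Calr, Hsp90b1 and Herpud1 were among 17 genes that reached the threshold in 0 libraries, and Ern1 was lower in the top quintile of control (-0.45) and S961 (-0.58).

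Cells of like insulin share were compared by cutting all beta-like cells into 5 common bins at 25.3%, 29.9%, 33.3% and 37.2% insulin. In the 3 middle bins 21, 22 and 19 of the 35 genes were lower in S961 than in control (11.9%, 13.7% and 11.9% of all genes) and 1, 1 and 2 were higher (23%, 20% and 22.1%), with summed ratios of -0.39, -0.39 and -0.35. In the bin under 25.3%, of 238 S961 and 654 control cells, 3 were lower and 2 higher (9.85% and 21.6%), and in the bin above 37.2%, of 566 and 420 cells, 12 were lower and 3 higher (24.2% and 12.6%). The summed ratios there were -0.03 and -0.11. Hspa5 had a ratio of -0.05 in the lowest bin and -0.52 in the fourth, whereas Calr was at -0.31 and -0.79. Hyou1 and Kdelr2 were lower and Ssr4 was higher in all 5 bins, and 23 of the 35 genes were below 0 in each. Between recovered and control the summed ratio lay between -0.32 and -0.18 in the 5 bins, and 28 genes were below 0 in each. No share over all genes is given for these counts of genes below 0. From the lowest to the top bin the medians over all genes were 0.07, 0.07, 0.04, 0.06 and -0.10 for S961 over control. For recovered over control they were 0.01, 0.06, 0.03, 0.05 and 0.01. Between recovered and S961, 0 genes were higher and 8 lower in the bin under 25.3% (10.6% and 18% of all genes). The summed ratio there was -0.25 and 26 of 35 genes were below 0, where the median over all genes was also below 0 (-0.07). In the next 3 bins the summed ratios were 0.11, 0.13 and 0.03, and in the top bin -0.07. By the summed ratios, the order S961, recovered, control thus held in the 3 middle bins but in neither the lowest nor the top bin.

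Outside the beta-like class, the 35 genes summed to 1.49%, 1.31% and 1.28% of the UMIs of delta-like cells in control, S961 and recovered, to 0.914%, 0.751% and 0.685% in endothelial-like cells and to 0.794%, 0.770% and 0.754% in alpha-like cells. Delta-like cells, which secrete somatostatin, thus stood above alpha-like cells, which secrete glucagon, in each library. Stromal-like cells held 1.18%, 1.02% and 1.66%.

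**Figure D4:**
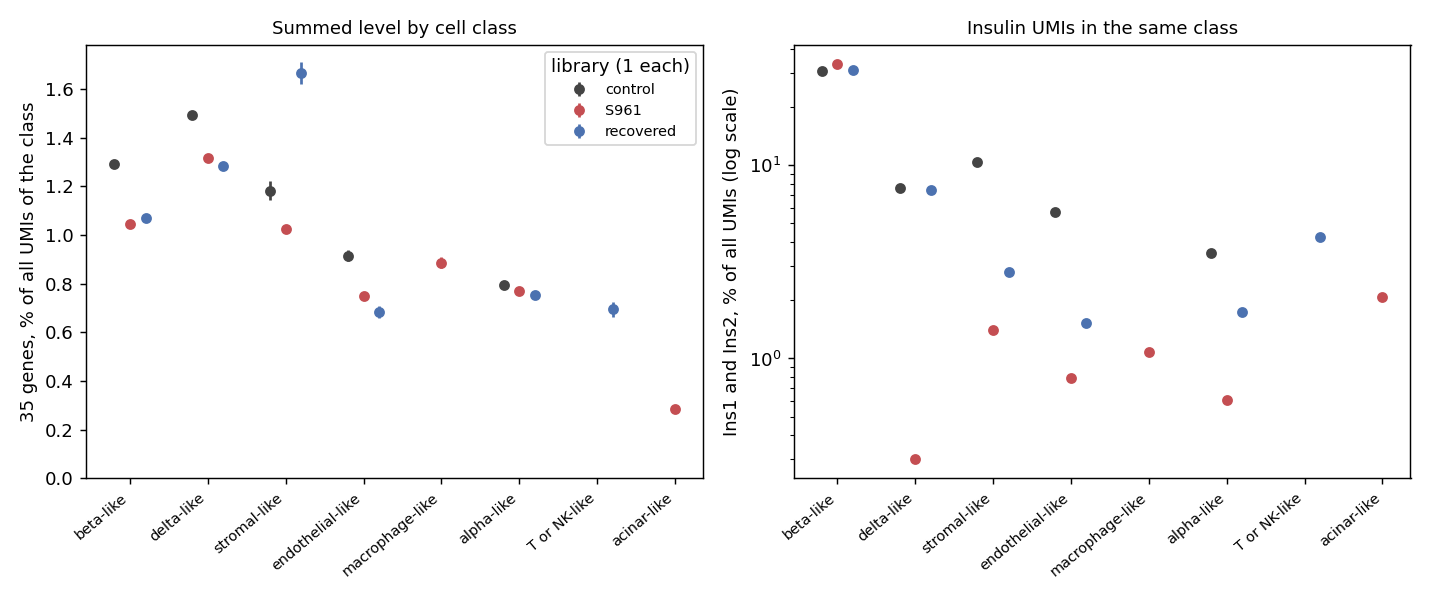
Left, the 35 genes as a percentage of all UMIs of each cell class, with exact Poisson 95% intervals (counting error only); right, insulin UMIs in the same classes on a log axis. Named classes are shown for libraries with at least 50 cells, without the B-like or plasma-like class. The pseudogene-led clusters and the clusters left without a name are not drawn. Recovered stromal-like cells reach 1.66%, acinar-like cells 0.284%, and insulin is lowest in S961 in the 4 non-beta classes shown for all 3 libraries.

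Insulin UMIs in cells that should make none were unequal between libraries: 3.51%, 0.610% and 1.73% of UMIs in alpha-like cells, 7.63%, 0.303% and 7.44% in delta-like, 5.74%, 0.788% and 1.53% in endothelial-like and 10.4%, 1.41% and 2.79% in stromal-like cells of control, S961 and recovered. The median cell lay lower, at 2.36%, 0.114% and 1.12% in alpha-like, 2.82%, 0.118% and 1.39% in delta-like, 3.82%, 0.134% and 1.77% in endothelial-like and 6.23%, 0.163% and 1.62% in stromal-like cells, except in recovered endothelial-like cells. If all of that insulin came with beta-cell RNA of the same library's average makeup, such RNA would carry 18.5%, 2.48% and 7.87% of the UMIs of the 35 genes in alpha-like cells and 37.0%, 4.31% and 5.75% in stromal-like cells. Counts are therefore given as measured and with that amount taken off. The amount is an upper estimate wherever a cell makes some insulin itself.

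In alpha-like cells 5 of 34 measured genes were lower in S961 and 1 higher (7.56% and 19.8% of all genes), and 0 were lower and 2 higher after beta-cell RNA was taken off (9.06% and 20.9%). In delta-like cells 12 of 34 were lower and 0 higher (9.1% and 24.4%), and 11 lower and 0 higher afterwards (12.8% and 18.9%). In endothelial-like cells 15 of 33 were lower and 2 higher (11.5% and 27.1%), and 6 and 3 afterwards (16.2% and 18.7%). In stromal-like cells 11 of 32 were lower and 1 higher (14.2% and 41.6%), and 8 and 6 afterwards (24.6% and 31.3%). The delta-like count hardly moved, while the alpha-like and endothelial-like counts of lower genes went from 5 to 0 and from 15 to 6. Keeping only cells with at most 5% insulin gave 5 lower and 1 higher in alpha-like (7.26% and 21.5%), 12 and 0 in delta-like (9.62% and 20.6%), 8 and 4 in endothelial-like (13.7% and 20.9%) and 14 and 5 in stromal-like cells (22.2% and 42.7%), so the guards differ for the alpha-like and stromal-like classes. Delta-like cells had Sdf2l1 at 305 CPM in control, 179 in S961 and 203 in recovered, a ratio of -0.76 (95% interval -0.93 to -0.60) for S961. Edem1 was at 48.5 CPM in control, 25.1 in S961 and 25.5 in recovered there (-0.95 for S961). Pdia6 was at 684 CPM in control, 512 in S961 and 534 in recovered (-0.42). Ssr4, high in S961 beta-like cells, had S961 over control ratios of -0.03 in alpha-like and -0.10 in delta-like cells.

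**Figure D5:**
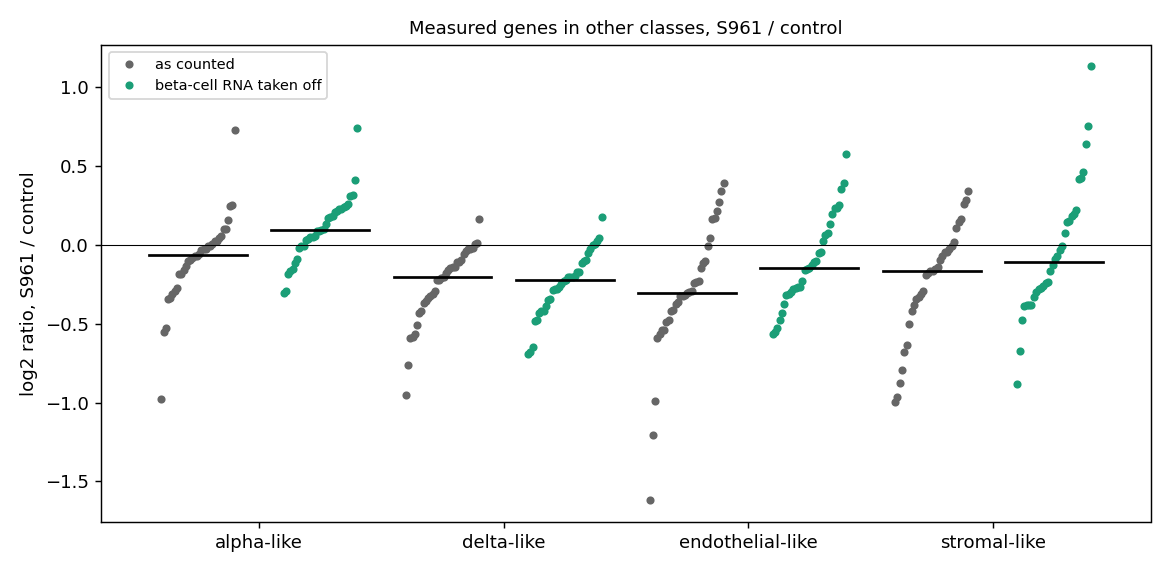
Log2 ratio of S961 over control for each measured gene in 4 other classes, as counted (grey) and with beta-cell RNA taken off in proportion to insulin (green); black bars are medians. The median goes from -0.07 to 0.09 in alpha-like cells and from -0.30 to -0.15 in endothelial-like cells, and from -0.21 to -0.23 in delta-like cells.

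In recovered over control, 3 of 32 genes were lower and 0 higher in alpha-like cells (11.2% and 16.2% of all genes), 8 of 34 and 0 in delta-like cells (10.5% and 14%), and 14 of 30 and 2 in endothelial-like cells (11.8% and 24.3%). With beta-cell RNA taken off, the counts were 0 lower and 2 higher in alpha-like (11.9% and 16.9%), 9 and 0 in delta-like (14.9% and 17.5%) and 12 and 5 in endothelial-like cells (17% and 17.6%), and the alpha-like median went from -0.10 to 0.02.

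Recovered stromal-like cells stood apart from those of the other libraries, on 51 cells. Of 28 measured genes 16 were higher than in control and 0 lower (32.6% and 19.2% of all genes), and of 32 genes 26 were higher than in S961 and 1 lower (18.3% and 37.1%). With beta-cell RNA taken off, 21 were higher and 0 lower than in control (27.1% and 31.9%), and 27 and 1 against S961 (19.8% and 36.4%). Hspa5 measured 1524 CPM in control, 1361 in S961 and 2568 in recovered there. The levels of Hsp90b1 were 1014 CPM in control, 903 in S961 and 1763 in recovered, those of Calr 1020.3 in control, 833 in S961 and 1516 in recovered. The recovered over control ratio of Hspa5 was 0.75 (95% interval 0.59 to 0.92). The makeup of the class moved with these values: the 7 fibroblast markers summed to 2610.0, 3862 and 9302 CPM and the 7 stellate or pericyte markers to 1178, 2008 and 1643, with Col3a1, a collagen of fibroblasts, at 997, 1369 and 3872. The 8 macrophage markers summed to 6.58, 133 and 332 CPM in these cells and the 10 acinar markers to 151, 579 and 228. The part of that makeup in the result was not tested.

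Within the S961 library 7 named classes had at least 50 cells and were ranked. Among them delta-like cells had the highest level for 15 of the 35 genes, beta-like and stromal-like cells for 6 each, macrophage-like for 5 and endothelial-like for 3. No share over all genes is given for these ranks, highest or lowest. The ranks use all UMIs, of which insulin took 33.3% in beta-like and 0.303% in delta-like cells. Of UMIs other than insulin the 35 genes made up 1.56% in beta-like and 1.32% in delta-like cells, the opposite order. Not ranked were 312 pseudogene-led cells and 143 cells of clusters left without a name. In the pseudogene-led cells Hspa5 was at 2413 CPM, against 1433 in delta-like cells, and Hsp90b1 at 902, against 1741. Ssr4 was highest in beta-like cells at 1269 CPM, and Hsp90b1 in delta-like cells at 1741. Fkbp11 ranged from 171 in stromal-like cells to 4.61 in macrophage-like cells on 3 UMIs, and Kdelr3 from 144 in stromal-like cells to 0 UMIs in macrophage-like cells, where the limit taken for a count of 0, 3 UMIs of the total, is 4.61 CPM. Acinar-like cells, which secrete digestive enzymes, had the lowest level for 30 genes. In them 10 acinar markers took 41.3% of UMIs, and the 35 genes made up 0.284% of all UMIs and 0.483% of the rest.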

How the data were processed

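Per the labels, islet cells of each group gave 1 library with a 10x 3′ kit; per the submitters' processing notes, Cell Ranger (version not given in the sources used here) and the mm10 build were used. The deposited values are UMI counts, whole numbers, for 31053 genes and 24590 barcodes. Members and lists were chosen with earlier results of these data known. Cells kept had at least 500 genes and no more than 20% mitochondrial UMIs. Scrublet took out 3, 77 and 24 doublets (0.0703%, 2.20% and 0.679%, so the caller had not worked in control), leaving 4267 control, 3430 S961 and 3513 recovered cells with medians of 6501, 9944 and 8577 UMIs.

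Cells were clustered with scanpy 1.11.5 and Leiden (leidenalg 0.10.2, resolution 0.5) on 2000 variable genes, none of them among the 35, and named from fixed markers. By a rule set after seeing the data, 2 clusters led by pseudogenes were kept out of every class. Raw counts were summed per class and library. Intervals are exact at 95% (Poisson for levels, Clopper-Pearson for ratios). A gene was called higher or lower at a log2 ratio of 0.32 or more in size with at least 50 UMIs over both libraries; no test across samples was possible. The genes named are the 35 and, of the wider lists, some of those with the lowest and highest S961 over control ratios and some of the PERK arm. Os9 was named after its value was seen. The code was tested on simulated counts. Gene coordinates are from GENCODE M21. Of the 35 genes 8 overlap another gene of the table, and Calr and Spcs2 have named pseudogenes, so reads may be split there. Only Manf overlaps a gene on its own strand (Rbm15b), and the other overlaps are with genes on the opposite strand. Alternatives changed the denominator, depth, cell filter, clusters, doublets and insulin matching.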

Additional observations from a re-analysis of the deposited data

Results flagged for a closer look

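For 9 combinations of gene and comparison the stromal-like and beta-like cells differed in opposite directions between the same libraries, with counting intervals that left out 0 in both classes. Ssr4 and Creld2 are each in more than 1 of them. With 1 library per group the difference between classes was not tested. In S961 over control, Ssr4 had a log2 ratio of -0.38 in stromal-like and 0.59 in beta-like cells. In recovered over control, the stromal-like and beta-like ratios were 0.75 and -0.35 for Hspa5, 0.60 and -0.57 for Sdf2l1, 0.54 and -0.44 for Manf, 0.70 and -0.63 for Creld2, 0.60 and -0.37 for Pdia6, and 0.60 and -0.42 for Ostc. In recovered over S961, Creld2 had 0.80 and -0.36 and Ssr4 had 0.56 and -0.65. With beta-cell RNA taken off, the recovered over control ratio of Sdf2l1 in stromal-like cells was 2.35, and in cells with at most 5% insulin 1.44. Both rest on a small control count. Sdf2l1 had 45 UMIs in control stromal-like cells, where 33.9% of all UMIs were taken off as beta-cell RNA. Only 30 of those cells had at most 5% insulin. The stromal-like values rest on 51 recovered cells and on as few as 36 UMIs in a library (Creld2 in control).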

How the results depend on the processing

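In beta-like cells the number of genes lower in S961 than in control lay between 15 and 25 over 11 alternatives (1 of them, with the insulin-rich pseudogene-led cluster added, chosen after seeing the data), and that in recovered between 9 and 16. The shares of all genes that were lower, 12.1% and 4.36% in the main setting, also moved with the alternatives. Of single genes, 14 were lower in S961 and Ssr4 was higher under all 11; Hspa5 was lower under 10 and Herpud1 under 1. The number higher in recovered than in S961 was 6, and 3 with UMIs other than insulin as the denominator or with common insulin bins. With the mean over cells of CPM, the median of all genes for S961 over control went from -0.02 to -0.12, and 12.2% of genes were higher and 25.2% lower.

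The top over bottom quintile ratio of insulin share depended on the processing; the cause was not tested. In control, S961 and recovered it was -0.29, -0.33 and -0.23 with all UMIs as the denominator, 0.10, 0.31 and 0.19 after thinning, 0.00414, 0.12 and 0.054 with the stricter cell filter, and 0.061, 0.26 and 0.12 without the stress-led cluster. It was 0.23 in recovered with no doublets left out. With settings chosen after seeing the data it was 0.22, 0.62 and 0.48 with the insulin-rich pseudogene-led cluster and 0.020, 0.10 and 0.050 in cells with 4 to 7% mitochondrial UMIs.

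Summed over the 4 other classes, the number higher in S961 than in control was 4, and 11 with beta-cell RNA taken off, 10 in cells with at most 5% insulin and 1 per UMI other than insulin. The number lower was 43, and 25, 39 and 56 under the same 3 settings. A gene can be counted in more than 1 of the 4 classes, and no share over all genes goes with these sums. That share moved with the setting too. In stromal-like cells, with beta-cell RNA taken off, it went from 14.2% to 24.6% lower and from 41.6% to 31.3% higher. With beta-cell RNA taken off, the number higher in recovered than in control went from 18 to 28 and the number lower in recovered than in S961 from 9 to 15. No paired analysis was possible because each group has 1 library. Depth limits the rare genes (Derl3, Syvn1 and Kdelr3) and the stromal-like class.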
